A study of Gasterosteus aculeatus with 9 samples.

Results

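Transcripts of the non-receptor protein tyrosine phosphatases were measured in RNA labelled as gill from 9 wild three-spined sticklebacks (Gasterosteus aculeatus). The members are the assembled transcripts whose first Swiss-Prot match carries 1 of 10 entry names, PTN1, PTN2, PTN3, PTN4, PTN6, PTN9, PTN11, PTN12, PTN13 and PTN23. The rule found 51 transcripts of 98643, in 15 of 53675 assembled genes and under 9 of the 10 names, out of 10495 names in the whole table. No row has PTN13 as its first match.

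Protein tyrosine phosphatases take phosphate groups off tyrosine residues and thereby act against tyrosine kinases. The non-receptor members have no extracellular part, and the domains beside the phosphatase domain place each of them: SH2 domains bind phosphorylated receptors and adaptors, FERM domains bind the membrane and cytoskeleton, and a BRO1 domain binds the endosomal sorting machinery. In the gill, tyrosine phosphorylation takes part in signalling in epithelial cells, in ionocytes (the cells that take up and secrete salt) and in white blood cells.

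From every station 3 fish were taken, caught by electrofishing in the Boye catchment in Germany and not pooled. Station B, in a stream with no salinization past or present, served as the control at 12.912 mg/L chloride, station A had 26.378 mg/L (mid-salinity) and station C 32 mg/L (high-salinity). All fish were untreated field animals whose age, sex and genotype are not given in the sources used here, and each chloride level comes from a single station, so chloride and any other difference between the sites cannot be told apart. Fish are named by station and replicate number, B1 to C3.

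The estimated counts summed to between 22049066 and 46214540 per fish, with a median of 35193784, and levels are CPM (reads of a transcript relative to the size of the library) after TMM normalization over the 9 fish, which sets the bulk of the transcripts level between libraries. The gill labels were checked against marker lists. A list of 6 epithelial genes, of which all 6 are in the table, summed to between 4877 and 9038 CPM in 8 fish and to 2327 CPM in C2. The 8 liver genes on a list, all of them in the table, summed to between 2.84 and 10.8 CPM in those 8 fish and to 54451 CPM in C2. The 6 of 8 listed ionocyte genes found in the table (CFTR and AT1B1 are not) summed to 1643 to 7343 CPM in the 8 fish and to 892 CPM in C2. Muscle genes (8 of 8 in the table) summed to 29243 CPM in C2 and to between 854 and 9092 CPM in the 8 fish, a wide spread among these as well. On the epithelial list EPCAM had 0.2997 CPM in C2 (12.3 to 28.9 CPM in the other fish) and CLD4 9.96 CPM (1499 to 2483). On the ionocyte list S12A2 had 1.24 CPM (68.6 to 126) and S12A3 11.9 CPM (345 to 2400). K1C18 (434 CPM) and VATB2 (153 CPM) lay within the range of the other fish, and CADH1 was higher (512 against 37.8 to 54.2 CPM). The library labelled station C replicate 2 therefore stands apart from the other libraries, and its values are given separately. It stays in the means and tests of station C unless stated. Whether it is gill tissue was not tested. Its TMM factor was 0.572, against 1.002 to 1.151 in the other fish, so that its levels depend on the normalization.

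PTN1 and PTN2 are the closest relatives in the family. In mammals PTPN1 (PTP1B) sits on the endoplasmic reticulum and acts on the insulin and leptin receptors, while PTPN2 acts on JAK kinases and STAT proteins. The PTN1 transcripts summed to 15.3, 15.0 and 13.2 CPM in B1 to B3, to 17.1, 20.8 and 18.7 CPM in A1 to A3, and to 20.0 and 21.8 CPM in C1 and C3, with 18 CPM in C2. All 6 fish of stations A and C thus lay above all 3 fish of station B, while stations A and C overlapped. Station means were 14.5 ± 1.17 (B), 18.9 ± 1.82 (A) and 19.9 ± 1.89 CPM (C), each ± SD over n = 3 fish. Log2 fold changes of 0.42 ± 0.15 in A vs B and 0.50 ± 0.18 in C vs B (± SE) were found, with adjusted p = 0.775 and 0.774 in the quasi-likelihood test of edgeR, so neither difference passed the test. Without C2 the second was 0.58. Before TMM normalization C2 had 10.3 CPM, below all fish of station B, which had 14.6 to 15.7 CPM.

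The PTN2 sums were 119, 113 and 118 CPM in B1 to B3, 112, 127 and 108 CPM in A1 to A3, and 123 CPM in both C1 and C3, with 76.2 CPM in C2. Apart from C2 they spanned only 1.17-fold, and the stations overlapped. The log2 fold change of 0.03 ± 0.11 in A vs B was smaller than its SE, and that in C vs B turned from -0.08 to 0.12 without C2. PTN1 and PTN2 transcripts occur together in the assembled genes DN416_c2_g1 and DN5676_c0_g1, so their separation rests on the closest protein match of each transcript. Added together, the names gave 127 to 148 CPM in the fish other than C2 and 94.2 CPM in C2, with overlapping stations.

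Within PTN1, DN416_c2_g1_i1 had the highest mean share, from 37.7% in C2 and 38.2% in A2 to 72.8% in B2. Its station means were 9.38 (B), 8.69 (A) and 10.5 CPM (C). DN5676_c0_g1_i8 averaged 2.61, 5.34 and 5.67 CPM in the same order, and DN5676_c0_g1_i2 2.27, 4.63 and 3.58 CPM. The higher PTN1 sums at stations A and C thus lay mostly in these smaller transcripts, of an assembled gene shared with PTN2. Within PTN2, DN416_c2_g1_i2 held 44.6% to 53.6% of the level in 8 fish and 39.4% in C2. The shares of PTN1 thus varied more from fish to fish than those of PTN2. A further 3 transcripts of the assembled gene DN3378_c0_g1, with KLH12 as first and PTN1 as second match, lie outside the rule. In the stickleback RefSeq annotation klhl12 and ptpn1 overlap. These transcripts together reached 7.11 to 15.6 CPM per fish, and DN3378_c0_g1_i7 had 12.8 CPM in B1 and 6.03 CPM in B2 but at most 0.319 CPM in each of the other 7 fish.

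PTN6 and PTN11 are the SH2-domain phosphatases. In mammals PTPN6 (SHP-1) restrains receptors of blood cells, while PTPN11 (SHP-2) is found in most tissues and passes growth factor signals on to the RAS pathway. The PTN6 sums were 94.4, 99.1 and 103 CPM in B1 to B3, 137, 173 and 97.4 CPM in A1 to A3, and 114 and 106 CPM in C1 and C3, with 134 CPM in C2. At station A the fish were spread from the range of the B fish to the highest level of all, whereas the C fish all lay just above the B fish. On the log2 scale the difference was 0.50 ± 0.22 in A vs B and 0.29 ± 0.16 in C vs B, with adjusted p = 0.775 and 0.774 in edgeR's quasi-likelihood test. A difference from station B was therefore not shown for either station. Before TMM normalization C2 had 76.8 CPM of PTN6, below all B fish, which had 96.7 to 114 CPM.

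White blood cell genes were looked at beside PTN6, and 12 of the 14 listed are in the table (PTPRC and COR1A are not). Their sum was 1478 to 1619 CPM in the B fish, 1162 to 1946 CPM in the A fish and 1253 to 1834 CPM in the C fish. A3 was lowest and A2 highest, and A2 was also the fish with the highest PTN6 level. The lowest PTN6 level was in B1 and not in A3. C2 had the lowest list sum of the C fish, 1253 CPM, but their highest PTN6 level, 134 CPM. Without overlap, 4 of the 12 names, PLSL, SPI1, IKZF1 and WASP, were higher in C vs B, as PTN6 was, beside 5.51% of all names. Other names of the list had negative log2 fold changes in C vs B. These were -0.69 (HG2A), -0.47 (CXCR4), -0.36 (CCR7), -0.21 (RAC2) and -0.04 (CY24B). C2 was the lowest C fish in HG2A, CXCR4 and CCR7. CCR7 had 14.7 and 15.0 CPM in C1 and C3, 13.2 to 15.0 CPM in the B fish and 2.80 CPM in C2. The list median was 0.16, beside 0.03 over all names. C2 lay below all B fish in PLSL and SPI1 before TMM normalization. PLSL, an actin-bundling protein of white blood cells, had 322 to 452 CPM in the C fish and 262 to 284 CPM in the B fish. In whole gills more white blood cells and more RNA per cell cannot be told apart, and the part of these cells in the PTN6 levels was not tested. The entry names whose sums followed PTN6 most closely over the 9 fish were KCNK6, ZB16A, PLSL, WIPF1 and SHIP1, with Pearson r on log2(CPM + 1) between 0.908 and 0.972, chosen among 7494 names. Over the 8 fish without C2 their r was 0.899 to 0.971, so these values did not rest on that library. Their order did in part: without C2, KCNK6, ZB16A and PLSL ranked 2, 4 and 3, but WIPF1 ranked 20 and SHIP1 37. PLSL is itself on the white blood cell list.

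The PTN11 sums were 80.5, 71.5 and 79.9 CPM in B1 to B3, 107, 84.3 and 61.4 CPM in A1 to A3, and 80.4 and 89.3 CPM in C1 and C3, with 179 CPM in C2. After TMM normalization C2 was far above the other fish, which overlapped across the stations, but before it C2 had 102 CPM, within the 63.6 to 109.96 CPM of the others. The log2 fold change in C vs B was 0.61 ± 0.33 with C2 and 0.18 without it, and did not pass the test in either case (adjusted p = 0.774 and 0.633, edgeR). The assembled gene DN5_c0_g4 had 119 CPM in C2 and 29.0 to 58.4 CPM in the other fish, and before TMM normalization 68.1 CPM against 30.0 to 59.8 CPM. Its 4 transcripts also match RN223, a RING finger protein, and carried between 45.4% and 66.7% of the PTN11 level. In RefSeq rnf223 lies inside ptpn11b, so reads of the 2 genes in these transcripts cannot be told apart.

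PTN3 and PTN4 are the FERM-domain phosphatases, which in mammals carry a FERM domain, a PDZ domain and a phosphatase domain and are found at the membrane and its cytoskeleton. The PTN3 sums were 77.2, 76.2 and 86.7 CPM in B1 to B3, 84.4, 81.3 and 83.4 CPM in A1 to A3, and 83.2 and 93.2 CPM in C1 and C3, with 69.8 CPM in C2. Apart from C2 the fish spanned 1.22-fold and the stations overlapped. Log2 fold changes were 0.09 ± 0.10 in A vs B, 0.08 ± 0.18 in C vs B, -0.02 ± 0.17 in C vs A, each smaller than its SE.

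All 10 PTN3 transcripts belong to the assembled gene DN80_c3_g1. Of these, 9 also match the neuropilin entry NRP1A and carry its MAM domain tag, and together they made up 96.5% to 99.1% of the PTN3 level. In RefSeq ptpn3 and nrp1a lie on different chromosomes, and how much of the level belongs to which gene cannot be told apart here. An eleventh transcript of the assembled gene has NRP1A as first and PTN3 as second match and reached at most 2.97 CPM. Over the 9 fish the names most like PTN3 included KMT2E, MKS3, T7L1B and CASP1, with r from 0.907 to 0.92. Without C2 the r of these 4 was 0.829 to 0.891, and they ranked 28, 18, 36 and 9 among 7494 names.

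The PTN4 sums were 70.2, 77.1 and 65.7 CPM in B1 to B3, 77.6, 79.1 and 56.1 CPM in A1 to A3, and 64.2 and 70.5 CPM in C1 and C3, with 78.2 CPM in C2. The stations overlapped with nearly equal means of 71.0 CPM at each of the 3 stations. The division among its 2 transcripts was also steady, with 88.1% to 92.2% for DN1290_c1_g2_i1 in every fish, the narrowest range among the names with several transcripts.

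PTN9, PTN12 and PTN23 act in trafficking and adhesion. In mammals PTPN9 acts on secretory vesicles, PTPN12 (PTP-PEST) on adhesion and cytoskeletal proteins, and PTPN23 (HD-PTP) sorts receptors into endosomes together with the ESCRT complexes. The PTN9 sums were 50.2, 62.0 and 55.4 CPM in B1 to B3, 51.6, 51.9 and 54.9 CPM in A1 to A3, and 51.8 and 51.2 CPM in C1 and C3, with 89.1 CPM in C2. The 8 other fish spanned 1.23-fold, and the log2 fold change in C vs B turned from 0.23 to -0.07 when C2 was left out. Before TMM normalization C2 was the lowest fish in PTN9, with 50.9 CPM against 51.4 to 62.1 CPM. DN78_c0_g2_i2 held the highest mean share, 51.7% to 69.4% of the level.

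PTN12 has a single transcript, DN4186_c2_g1_i1, with 1.17, 0.777 and 2.66 CPM in B1 to B3, 0.730, 0.509 and 1.19 CPM in A1 to A3, and 1.65 and 2.94 CPM in C1 and C3, with 2.22 CPM in C2. The 3 C fish lay above the 3 A fish, and the B fish overlapped both. The log2 fold change in C vs A was 1.50 ± 0.50 and did not pass the test (adjusted p = 0.934, edgeR). The 3 transcripts of its assembled gene together spanned 3.71 to 5.75 CPM, with overlapping stations.

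The PTN23 sums were 92.6, 82.1 and 71.2 CPM in B1 to B3, 100.2, 83.1 and 83.3 CPM in A1 to A3, and 102 and 94.3 CPM in C1 and C3, with 55.4 CPM in C2. The stations overlapped, and C2 was the lowest fish. The log2 fold change in C vs B was 0.08 ± 0.28 with C2 and 0.31 without it (adjusted p = 0.933 and 0.600, edgeR).

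**Figure D1:**
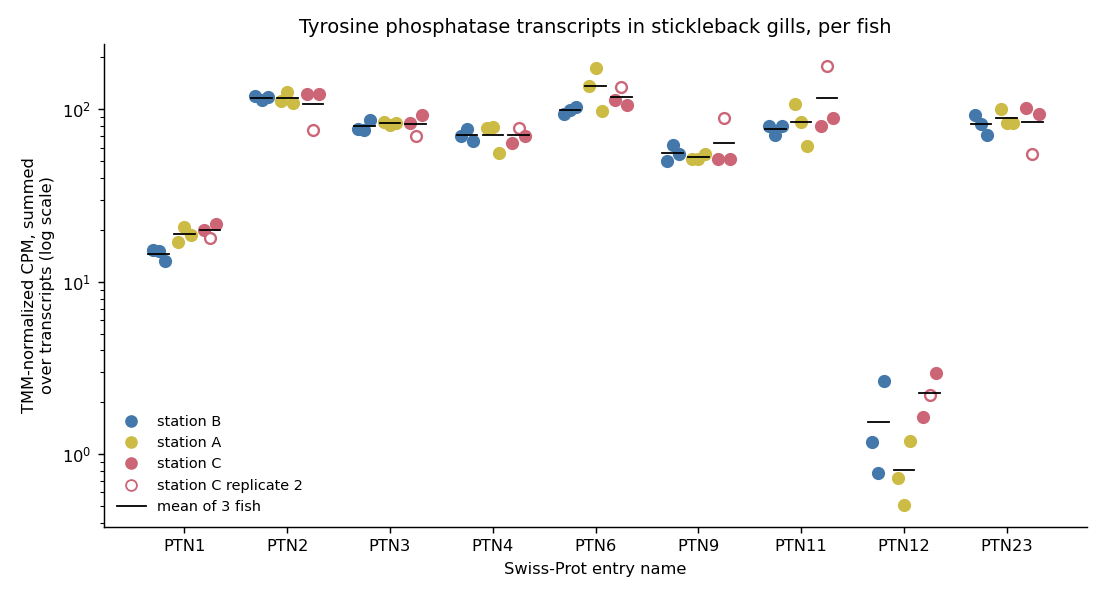
TMM-normalized CPM of 9 names, summed over their transcripts (log axis), with 1 point per fish coloured by station, an open point for C2, and a line at the mean of 3 fish. All A and C fish lay above the B fish in PTN1 (17.1 to 21.8 against 13.2 to 15.3 CPM), and on this scale C2 was the highest fish in PTN9 and PTN11 and the lowest in PTN2, PTN3 and PTN23; CPM also depends on transcript length, so levels are not compared between names.

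In the fit of all entry names, 0 of the 9 members passed the quasi-likelihood test of edgeR in any of the 3 comparisons (called at an adjusted p up to 0.05 with more than a 2-fold difference). In each comparison 0.0% of the names were called, out of 9052, 9012 and 9075 tested. An unadjusted p below 0.05 was reached by 1 member in each, PTN1 in A vs B and C vs B and PTN12 in C vs A, where 6.14%, 3.83% and 3.15% of all names did so. DESeq2 called 0 of the 9 members as well, beside 0.421%, 0.114% and 0.737% of all names. The median log2 fold change of the members was 0.09 in A vs B, 0.23 in C vs B, -0.01 in C vs A, and that of all names was 0.01, 0.03 and 0.02.

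In A vs B, 1 of the 9 names did not overlap and was higher at station A (PTN1), where 4.39% of all names were higher without overlap. In C vs B these were PTN1 and PTN6, 2 of 9, beside 5.51% of all names, and in C vs A PTN12, 1 of 9, beside 4.21%. No member was lower without overlap, beside 7.92%, 8.63% and 4.79% of all names. Of the member transcripts 3 of 38 were higher and 2 of 38 lower without overlap in A vs B, beside 5.06% and 5.71% of all transcripts. These were 3 and 2 of 43 in C vs B, beside 5.37% and 6.64%, and 1 and 0 of 41 in C vs A, beside 5.37% and 5.24%. With reads summed per assembled gene, 0 of the 11 members tested were called by edgeR or DESeq2 in A vs B (0.0% and 1.11% of all assembled genes), in C vs B (0.0% and 0.377%) or in C vs A (0.00454% and 1.11%). None of them had an unadjusted p below 0.05 in edgeR. With plain library totals PTN1 and PTN6 overlapped in C vs B, and PTN11 was the name that did not (71.6 to 88.4 CPM at station B, 92.6 to 103 CPM at station C).

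**Figure D2:**
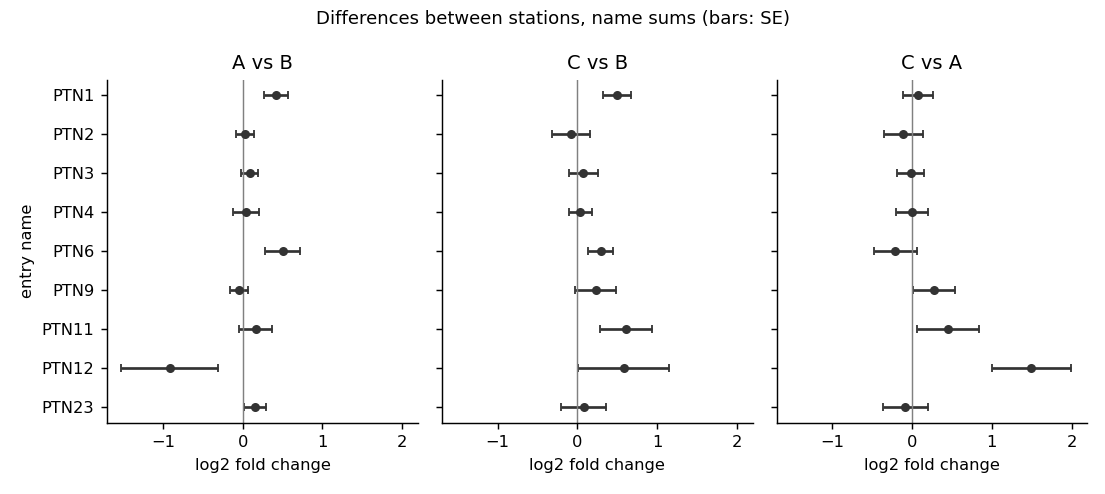
Log2 fold change of the 9 names in each of the 3 comparisons, from the quasi-likelihood test of edgeR, with bars of 1 SE (obtained from the F statistic). Most points lay within 0.5 of 0; PTN12, the name with the fewest reads, had the widest bars and 0 of the 9 names were called in any panel.

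At the level of single transcripts, PTN3 and PTN6 each held a pair of transcripts that the fish carried largely in place of each other. The pairs were put together after their values were seen, and neither the pairing nor the sums were given a test of their own. DN80_c3_g1_i10 of PTN3 was at 0 in B1, B2 and B3, and had 11.6, 11.9 and 11.7 CPM in A1 to A3 and 12.2 and 17.5 CPM in C1 and C3, with 4.40 CPM in C2. DN80_c3_g1_i11 of PTN3 had 7.32, 12.4 and 12.6 CPM in B1 to B3 and 5.50 CPM in A3, and was at 0 in A1, A2 and all 3 fish of station C. The first was thus present in all 6 fish of stations A and C and in none of station B, and the second in all B fish and only A3 besides. A3 carried both.

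A limit of 3 counts per library averages 0.0815 CPM over the 3 fish of station B. Against it the mean of DN80_c3_g1_i10 was at least 144-fold higher at station A and at least 139.7-fold higher at station C. For the lowest fish of these stations it was 142-fold and 54.0-fold. The limit covers counting error only and not the division of reads among transcripts. DN80_c3_g1_i11 was at least 115-fold lower at station C than the mean of station B, and 78.3-fold lower than its lowest fish. Both transcripts carry the FERM_N, MAM and Y_phosphatase tags. Their sum averaged 10.8 ± 3.00 (B), 13.6 ± 3.18 (A) and 11.4 ± 6.60 CPM (C, ± SD over n = 3 fish), so that the sum overlapped between all stations. The pair made up 6.30% (C2) to 20.7% (A3) of the PTN3 level, and DN80_c3_g1_i14, present in every fish, had the highest mean share, 28.5% to 54.9%.

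The PTN6 pair divided the fish without exception. DN5_c0_g1_i17 had 4.53, 3.59 and 5.59 CPM in B1 to B3 and 6.59 and 5.53 CPM in A1 and A3, and was at 0 in A2 and at station C. DN5_c0_g1_i9 had 5.78 CPM in A2, 5.25 and 4.88 CPM in C1 and C3 and 4.75 CPM in C2, and was at 0 in the other 5 fish. Every fish thus had 1 of them and not the other. By station means, DN5_c0_g1_i9 was at least 60.9-fold higher and DN5_c0_g1_i17 at least 48.9-fold lower at station C than at station B. Taken from the lowest fish with each transcript, these were 58.3-fold and 38.4-fold. Both carry the SH2 tag. Their sum averaged 4.57 ± 1.00 (B), 5.97 ± 0.557 (A) and 4.96 ± 0.260 CPM (C), or 3.33% to 5.68% of the PTN6 level. The transcript with the highest mean share in PTN6 was DN5_c0_g1_i13, with 45.8% to 60.3% in 8 fish and 13.9% in C2, where DN5_c0_g1_i6 held 60.7%.

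**Figure D3:**
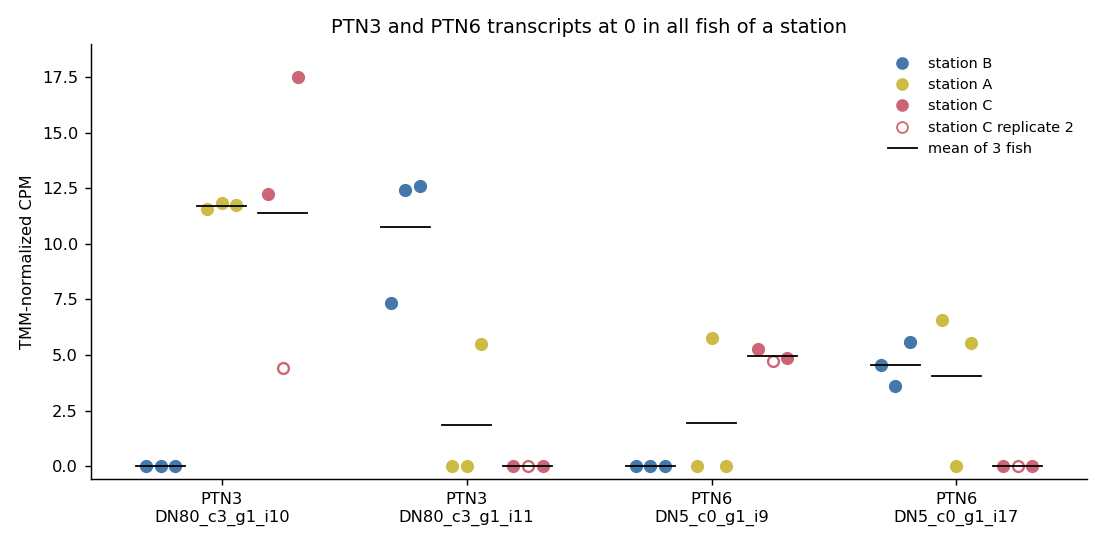
TMM-normalized CPM per fish of 2 PTN3 and 2 PTN6 transcripts, with 1 point per fish coloured by station, an open point for C2, and a line at the mean of 3 fish. DN80_c3_g1_i10 is at 0 in the B fish and 4.40 to 17.5 CPM in the A and C fish, while DN80_c3_g1_i11 is present in the B fish and A3; DN5_c0_g1_i17 and DN5_c0_g1_i9 never occur in the same fish.

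The quasi-likelihood test called 0 of 38 member transcripts in A vs B, 0 of 43 in C vs B and 0 of 41 in C vs A, where 0.0% of all transcripts were called in each. An unadjusted p below 0.05 was found for 1, 4 and 1 of them, and for 3.42%, 2.70% and 3.63% of all transcripts. The smallest adjusted p among the members was 0.171 in A vs B, for DN80_c3_g1_i10 (edgeR). In C vs B it was 0.254, shared by DN80_c3_g1_i11, DN5_c0_g1_i9 and DN5_c0_g1_i17, and DN80_c3_g1_i10 had 0.280 (edgeR). With DESeq2, 1 of 42 member transcripts was called in A vs B, DN80_c3_g1_i10, beside 1.39% of all transcripts. In C vs B DESeq2 called 4 of 45, the PTN3 and PTN6 pairs, beside 1.36%, and in C vs A 0 of 43, beside 2.4%. The adjusted p of DESeq2 was 1.35e-17 for DN80_c3_g1_i10 in A vs B, and in C vs B 2.79e-11 for it, 1.28e-14 for DN80_c3_g1_i11, 7.49e-14 for DN5_c0_g1_i9 and 4.57e-12 for DN5_c0_g1_i17. Each of these transcripts is at 0 in all 3 fish of a group and passed the filter only through the other group. The study itself singled out both genes on these fish, so the number of calls is a description and not independent evidence. It listed PTPN3 (stations A and C) and PTPN6 (station C) as upregulated, with adjusted p values matching those of DN80_c3_g1_i10 and DN5_c0_g1_i9 here (DESeq2). The name sums gave log2 fold changes of only 0.09 (A vs B) and 0.08 (C vs B) for PTN3 and 0.29 (C vs B) for PTN6. The study also measured PTPN3 and PTPN6 by quantitative PCR and reported a positive direction. For this the study took the control-station sample with the lower expression as reference, which by itself favours a positive direction. Which of the transcripts its primers cover was not tested here.

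The share of each transcript in its assembled gene was compared as well. In A vs B 1 of 38 member transcripts had a changed share, DN80_c3_g1_i10 (adjusted p = 0.00416, diffSpliceDGE of edgeR), beside 0.368% of all transcripts. In C vs B there were 4 of 43, beside 0.398%, with adjusted p = 0.00569 for DN80_c3_g1_i10, 0.00667 for DN80_c3_g1_i11, 0.0342 for DN5_c0_g1_i9 and 0.0277 for DN5_c0_g1_i17. In C vs A there were 0 of 41, beside 1.02%, and 0 had an unadjusted p below 0.05. Each of these transcripts is at 0 in all 3 fish of a group and passed the filter only through the other group, so these adjusted p values, like the calls of DESeq2, are given as a description. The count in C vs B also depended on single fish. It was 0 without B2, without B3 or without C3, and 1 without B1 (DN80_c3_g1_i11) or without C1 (DN80_c3_g1_i10). Without C2 it was 4, but with DN5_c0_g1_i5 in place of DN80_c3_g1_i11. In A vs B it was 0 without B3 and 2 without A3 (DN80_c3_g1_i10 and DN80_c3_g1_i11).

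Absence from a whole station was seen for 1 of 51 member transcripts in A vs B, absent at station B, where 0.324% of all transcripts were. In C vs B 2 of 51 were absent at station B, beside 0.365%, and 2 at station C, beside 0.371%. None was absent at station A and present in all fish of station B or C, beside 0.418% and 1.0% of all transcripts, nor was any absent at station C and present in all A fish, beside 0.308%. In single fish absence was common. Of the 51 member transcripts 25 were above 3 counts in all 9 fish, 25 in 1 to 8 fish and 1 in none. Among transcripts with a mean of at least 1 CPM, 44.2% of the members and 41.7% of all transcripts were missing from at least 1 fish.

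PTN23 showed the largest exchange of transcripts, and it did not follow the stations. DN11440_c0_g1_i10, with the highest mean share, had 68.7, 30.7 and 54.8 CPM in B1 to B3, 67.1 and 61.7 CPM in A1 and A2 and 61.9 CPM in C3, and was at 0 in A3, C1 and C2. DN11440_c0_g1_i4 had 36.8 CPM in A3, 53.1 CPM in C1 and 24.9 CPM in C2 and was at 0 in the other 6 fish. The fish thus split into 6 with the first and 3 with the second, with station A and station C on both sides. B2 differed again: it had DN11440_c0_g1_i10 at 37.4% of its PTN23 level, against 65.6% to 76.9% in the other 5 fish with it, and also carried DN11440_c0_g1_i2 and DN11440_c0_g1_i7 at 43.3% together. Those transcripts were otherwise found only in A3, C1 and C2, at 19.8% to 31.8%. All PTN23 transcripts belong to DN11440_c0_g1, and 9 of 10 carry the BRO1 tag. These sets of transcripts, like those of PTN11 and PTN6 named next, were chosen after their values were seen and were given no test of their own.

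In PTN11, DN5_c0_g4_i1 and DN5_c0_g4_i3 together were at 0 in B1, B3, A1, A2 and C1, and held 24.7% of the PTN11 level in B2, 18.4% in A3, 25.8% in C3 and 38.7% in C2. The transcript with the highest mean share, DN5_c0_g2_i2, ranged from 13.7% in B1 to 34.0% in B2. A second exchange in PTN6 was between DN5_c0_g1_i5 and DN5_c0_g1_i11, which carry the Y_phosphatase tag: B1, B2, A2, A3 and C2 had only the former, A1, C1 and C3 only the latter, and B3 both. Their sum stayed between 4.92 and 7.73 CPM in all fish.

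**Figure D4:**
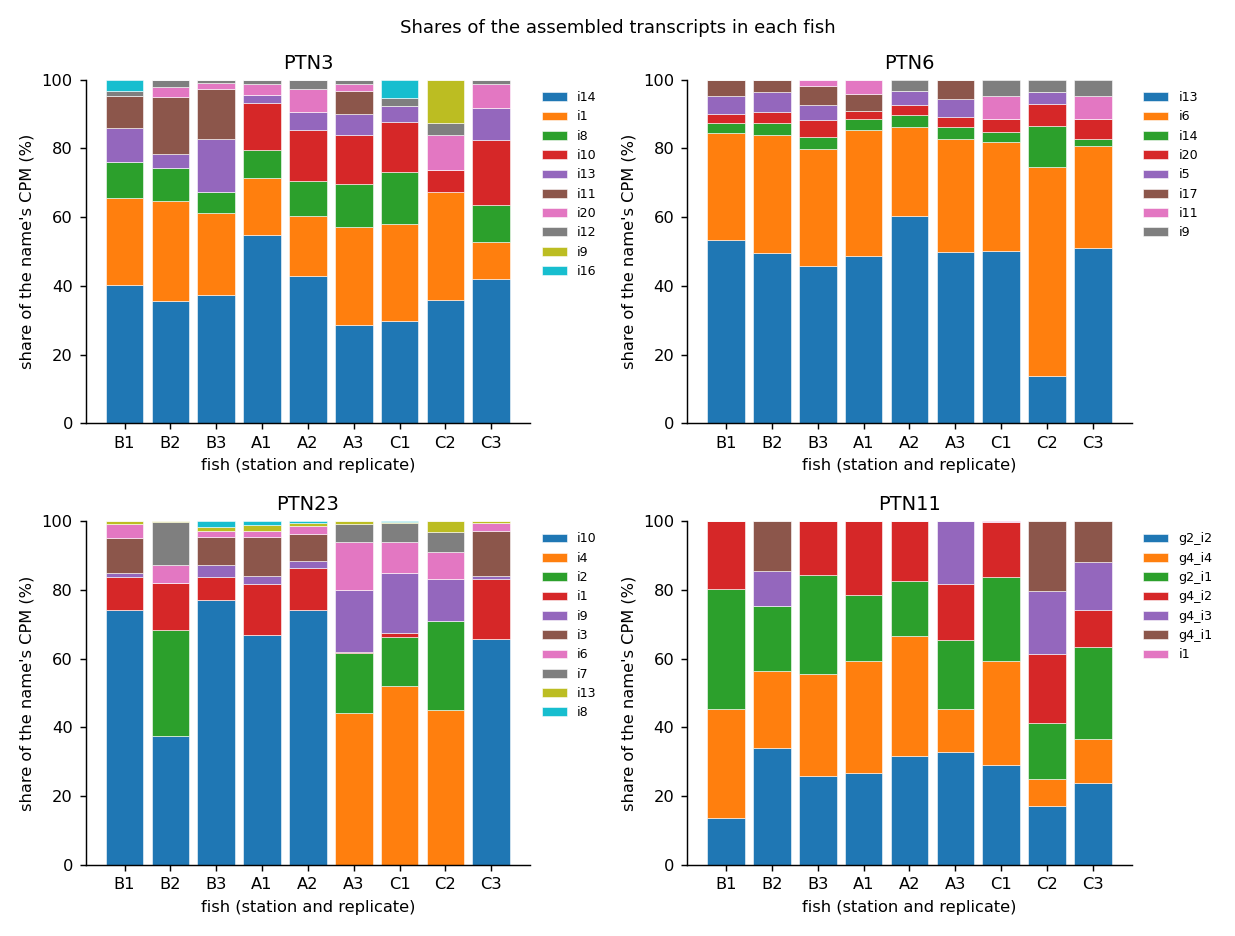
Share of each assembled transcript in the CPM of PTN3, PTN6, PTN23 and PTN11, as stacked bars that add up to 100% in each of the 9 fish. PTN23 changes from a bar led by i10 (37.4% to 76.9%) to one led by i4 (44.2% to 51.9%) in A3, C1 and C2, whereas the exchanged transcripts of PTN3 and PTN6 fill small parts of the bars.

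The domain tags in the table differed between the names. A Y_phosphatase tag, the catalytic domain, was present on 19 of 51 member transcripts: all 3 of PTN9, 4 of 5 of PTN2, 2 of 5 of PTN1, 7 of 10 of PTN3 and 3 of 8 of PTN6, and none of PTN4, PTN11, PTN12 or PTN23. Transcripts with the tag made up 97.2% to 98.3% of the PTN2 level, 69.5% to 87.4% of PTN1, 35.7% to 60.8% of PTN3 and only 6.63% to 12.5% of PTN6. In PTN6 the tagged share averaged 9.34% ± 1.80 (B), 7.24% ± 0.795 (A) and 10.99% ± 1.39 (C, ± SD over n = 3 fish). Station B overlapped both other stations, while stations A and C did not overlap each other. This share was given no test of its own, and how many of all names separate in this way was not counted. Most of the PTN6 level thus came from transcripts tagged with SH2 and not with Y_phosphatase. A missing tag does not show that the RNA lacks the domain, because tags are labels on transcripts assembled de novo. Whether these transcripts are complete was not tested.

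Other genes of tyrosine signalling were followed as lists by name sums. Of 23 other classical tyrosine phosphatases 15 are in the table, and 0 of the 13, 13 and 14 tested passed in A vs B, in C vs B and then in C vs A, the order kept for all lists. Their median log2 fold change was 0.30, 0.17 and -0.20, beside 0.01, 0.03 and 0.02 over all names. In A vs B 2 of the 13 were higher without overlap, beside 4.39% of all names. PTPRE was higher in all A fish (75.5 to 81.3 CPM) than in all B fish (55.3 to 75.3 CPM), as was PTPRB at 1.77 to 3.06 against 1.10 to 1.75 CPM. Before TMM normalization PTPRE overlapped between these stations, while PTPRB did not.

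Among JAK and STAT proteins 0 of 7 passed in any comparison, with medians of 0.02, 0.07 and -0.04. STA5B, a transcription factor downstream of cytokine receptors, was 164 to 182 CPM in the C fish and 152 to 158 CPM in the B fish. Receptor tyrosine kinases and adaptors had 0 of 18 passing and medians of 0.14, 0.11 and 0.03. GAB1, an adaptor that recruits SHP-2 in mammals, was 80.0 to 129 CPM in the C fish and 66.4 to 78.4 CPM in the B fish, with C2 highest. SOS2, an activator of RAS, was 34.9 to 35.2 CPM in the C fish and 24.6 to 29.5 CPM in the B fish, and SHC1 was under 1 CPM in all fish. These values of C2 depend on the normalization. Before it C2 lay below all B fish in STA5B and SOS2 and within their range in GAB1 and SHC1. Without overlap, 1 of 7 JAK and STAT names and 3 of 18 names of the receptor list were higher in C vs B and 0 of either lower, beside 5.51% and 8.63% of all names, and none of them passed the quasi-likelihood test.

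Of the SRC, SYK and TEC kinases 0 of 11 passed, with medians of 0.28, 0.01 and -0.48. Of the 11 names 1 was higher without overlap in C vs B (LYN), beside 5.51% of all names. In C vs A 1 was higher (LYN) and 1 lower (CSK), beside 4.21% and 4.79% of all names. LYN, a SRC-family kinase of blood cells, was 20.7 to 31.7 CPM in the C fish, against 9.59 to 17.9 CPM at station B and 9.99 to 19.3 CPM at station A. C2 was highest in LYN, but before TMM normalization it lay within the range of the B and A fish. CSK, which switches off SRC kinases, was 133 to 164 CPM in the C fish and 195 to 251 CPM in the A fish. Adhesion and cytoskeleton substrates had 0 of 10, 0 of 9 and 0 of 10 passing, with medians of -0.01, -0.17 and -0.24. Of these 1 was higher and 1 lower without overlap both in A vs B and in C vs B, and 1 lower in C vs A. Of all names 4.39% were higher and 7.92% lower in A vs B, 5.51% and 8.63% in C vs B, and 4.79% lower in C vs A. In that list FAK1, the focal adhesion kinase, was 3.48 to 4.45 CPM in the B fish, 2.63 to 3.40 CPM in the A fish and 2.16 to 3.01 CPM in the C fish. PPIP1 was 2.06 to 5.10 CPM in the A fish, at 0 in the C fish and 0, 1.75 and 0.244 CPM in B1 to B3. It was the only name of these 6 lists called by DESeq2 (C vs A). In that comparison it passed the filter only through station A, so the call is a description. Of the ESCRT partners 0 of 8 passed, with medians of -0.01, -0.17 and -0.18, and names without overlap lay on both sides. In A vs B 1 was higher and 1 lower, beside 4.39% and 7.92% of all names. In C vs B 1 was higher and 2 lower, beside 5.51% and 8.63%, and in C vs A 1 was lower, beside 4.79%. VPS28 was 156 to 196 CPM in the B fish, 139 to 139.7 CPM in the A fish and 83.3 to 141 CPM in the C fish, with C2 lowest. VPS4A was 17.02 to 20.7 CPM in the A fish and 12.8 to 16.8 CPM in the B fish, and STAM2 46.2 to 52.7 CPM in the C fish and 39.4 to 44.6 CPM in the B fish. In STAM2 C2 lay below all B fish before TMM normalization. Over the 6 lists, an unadjusted p below 0.05 was reached by 0 names in A vs B, by 3 in C vs B (SOS2, LYN and WASP) and by 2 in C vs A (CSK and PPIP1).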

How the data were processed

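The authors trimmed the reads with Trimmomatic, built one de novo assembly from all 9 fish (Trinity), dropped transcripts of low expression, and matched the rest to Swiss-Prot and Pfam with Trinotate. They deposited estimated counts from Salmon for each transcript and fish, which are not normalized, and 48.8% of the values are whole. Reads that match several transcripts are divided among them, which bears on every transcript share. Columns were matched to fish by name, 0 columns stayed unmatched, and no columns were identical. The fish are separate animals.

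Counts were rounded to whole numbers; tests ran in edgeR 4.0.16 (quasi-likelihood test, filterByExpr, TMM, the 6 fish of each comparison) and DESeq2 1.42.0 (the tool of the authors, on features above 1 CPM in at least 2 of 6 fish) under R 4.3.3; figures were drawn with matplotlib 3.10.9. Calls needed an adjusted p (Benjamini-Hochberg, over all features tested) no larger than 0.05 and a log2 fold change beyond 1 in size; shares were tested with diffSpliceDGE at 0.05. Tests were fitted on the whole table, for transcripts and for sums per entry name. An SE was derived as the size of a log2 fold change over the root of the F statistic. A transcript counted as absent with at most 3 counts, which is 0.0649 to 0.136 CPM by library and covers counting error only. In data simulated for A vs B with the spread of these fish, the quasi-likelihood test and the share test recovered hardly any changed transcripts. DESeq2 and the share test called more unchanged transcripts than changed ones. In that simulation each transcript was drawn on its own, without reads divided among transcripts. DESeq2 ran there after filterByExpr, and calls needed only the adjusted p. The simulated rates therefore cannot be carried over to the calls reported above.

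Named are all members, and of their transcripts the one with the highest mean share, those called, and those absent from a station. Other transcripts are named after their values were seen. Members, gene lists and tests were chosen with earlier results of these data known. Gene names, overlaps and chromosomes are from RefSeq (fGasAcu3.hap1.1). Its coordinates serve only these statements, and its sequences are not used here. A result among the names most like PTN3 is not reported here.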

Additional observations from a re-analysis of the deposited data

How the results depend on the processing

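Counts of called members were 0 for names in every setting and 0 for transcripts in every edgeR setting, but with DESeq2 1 transcript was called in A vs B and 4 in C vs B, under both filters. With the replicate number as a block, shares changed for 0 transcripts in A vs B and 2 in C vs B, but the number does not pair the fish (r of same-numbered fish from -0.129 to 0.236 over names, 2 of 9 pairs above 0.1). Leaving out 1 fish gave 0 to 2 transcripts with a changed share in A vs B and 0 to 4 in C vs B; single libraries are named in the report. With plain library totals, 1 name did not overlap in C vs B, higher, and 1 transcript in A vs B, lower, instead of 2 each. Sums per assembled gene, added after seeing the data, gave 0 called members of 11 with edgeR and with DESeq2.

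Signs of small fold changes were not stable. In C vs A the log2 fold change of PTN3 was 0.0079 with all 9 fish in one fit, and that of PTN4 was 0.0039 with RLE normalization, 0.0036 and 0.0054 with DESeq2 under either filter, 0.0204 with all 9 fish and 0.0094 with the replicate block. Leaving out single fish moved the log2 fold change in A vs B between -0.0577 and 0.079 for PTN2, -0.0587 and 0.19 for PTN4, -0.12 and 0.0271 for PTN9 and -0.0396 and 0.35 for PTN11. In C vs B the ranges were -0.21 to 0.12 for PTN2, -0.0278 to 0.19 for PTN3, -0.0256 to 0.0849 for PTN4, -0.0673 to 0.36 for PTN9 and -0.11 to 0.31 for PTN23. In C vs A they were -0.22 to 0.11 for PTN2, -0.12 to 0.11 for PTN3, -0.13 to 0.0822 for PTN4, -0.38 to 0.0056 for PTN6, -0.0095 to 0.41 for PTN9 and -0.26 to 0.17 for PTN23. The cause was not tested. The other log2 fold changes kept their sign, and every limit for absence (0, 3 or 10 counts) gave counts within 1.5 times of each other. Depth and 3 fish per station limit all of these values.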
